A study of Mus musculus with 141 samples.

Results

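The clustered protocadherin locus of the mouse was examined on chromosome 18 between bases 36930000 and 37842000 (mm10), and its members were all positions of the single-cell methylation table that fall in this interval. These were 837 of the 1416034 cytosine positions in the table. The interval holds the Pcdha, Pcdhb and Pcdhg gene clusters with 58 variable first exons (57 of protein-coding genes and the transcribed pseudogene Pcdhgb8): 14 in Pcdha, 22 in Pcdhb and 22 in Pcdhg. The members were set by their coordinates and not by a methylation value, although earlier results of these data were known when the locus was chosen. The first exon of each gene was taken as 2500 bases from its annotated start, shortened where the next gene started earlier, because the annotation used gave gene ends but no exons.

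Clustered protocadherins are cadherin-family adhesion proteins of the nerve cell surface that bind only matching isoforms on a neighbouring cell. Each variable first exon has its own promoter, and in neurons most of these alternate exons (Pcdha1 to Pcdha12, Pcdhb, Pcdhga and Pcdhgb) are chosen at random in each cell. Promoters that are not chosen carry DNA methylation, placed in part by Dnmt3b and kept with the help of Smchd1, and methylation keeps the architectural protein CTCF from its sites. The C-type exons (Pcdhac1, Pcdhac2, Pcdhgc3, Pcdhgc4 and Pcdhgc5) lie at the downstream ends of Pcdha and Pcdhg and are controlled separately from the random choice.

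The cells were Idh R132H mouse glioma cells, a line whose mutant isocitrate dehydrogenase produces 2-hydroxyglutarate, which blocks the TET enzymes that take part in DNA demethylation. They had been kept for more than 2 weeks in 1 µM AG-881 (vorasidenib, an inhibitor of mutant IDH1 and IDH2) or in the vehicle DMSO, and live cells (calcein AM positive, TO-PRO-3 negative) were sorted singly. The 67 AG-881 cells and 74 DMSO cells were profiled by reduced representation bisulfite sequencing of DNA cut with MspI, jointly with Smart-seq2 transcriptomes, which were not analysed here. Each arm was 1 plate and 4 library pools (pools 1 to 4 with AG-881, pools 5 to 8 with DMSO), so pool and treatment cannot be told apart within a pool. The labels name no separate cultures, so no test was run and each difference below is between these 2 sets of cells. A call is 1 CpG in 1 cell, read as methylated or unmethylated, and a level is the percentage of calls that were methylated, with its 95% exact (Clopper-Pearson) interval. Intervals cover counting error only, and they are too narrow wherever calls come from the same cell.

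Coverage of the locus was thin. AG-881 cells had a median of 27 calls in it (range 1 to 101), and DMSO cells had a median of 21 calls (range 0 to 80). The 3896 calls covered 781 CpGs, of which 40 had calls from 5 or more cells in both arms, the set planned for comparisons. None of the 58 first exons reached the planned 50 calls and 10 cells per arm at those CpGs; of the 2500-base windows outside the locus that did, 4.86% were lower and 1.86% higher by at least 10 points in AG-881 cells. First exons are therefore described at all positions. Counts of exons lower or higher in 1 arm take only those with 20 or more calls from 5 or more cells in both arms, a limit chosen after the depth was seen.

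The locus was heavily methylated in both arms. At all positions the level was 68.7% in AG-881 cells (66.6 to 70.7; 2055 calls in 67 cells) and 69.5% in DMSO cells (67.3 to 71.6; 1841 calls in 73 cells), a difference of -0.81 points (-3.75 to 2.13). The rest of chromosomes 1 to 19 and X stood at 33.4% in AG-881 cells and 34.5% in DMSO cells. At the 40 CpGs of the planned set the locus was at 66.03% with AG-881 (315 calls) and 68.6% with DMSO (325 calls), a difference of -2.58 points (-10.04 to 4.89). Every interval of the locus difference thus included 0, while the locus was about as far above the rest of the genome in AG-881 cells as in DMSO cells.

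At all positions Pcdha was the least methylated of the 3 clusters. It was at 61.9% in AG-881 cells (622 calls) and 67.6% in DMSO cells (516 calls), with a difference of -5.74 points (-11.4 to -0.033). That difference had the opposite sign, 3.24 points (-6.22 to 12.5), at the CpGs with 5 or more cells in both arms, and 4.06 points at those with 10 or more. Pcdhb was at 80.2% with AG-881 and 81.4% with DMSO. Pcdhg was at 77.6% with AG-881 and 74.6% with DMSO, 3.06 points apart (-1.09 to 7.20), and it too had the opposite sign in the planned set, 52.1% with AG-881 and 61.1% with DMSO. The direction in Pcdha and in Pcdhg thus depended on which CpGs were counted, and so did the order of the clusters. In the planned set Pcdha was the most methylated, at 79.2% with AG-881 (154 calls) and 76.0% with DMSO (179 calls). Pcdhb was there at 50% with AG-881 (50 calls) and 46.3% with DMSO (41 calls).

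Within the locus, methylation differed more by the kind of sequence than by arm. The alternate first exons together were at 86.0% in AG-881 cells (83.7 to 88.1; 1000 calls) and 87.8% in DMSO cells (85.5 to 89.8; 926 calls). The C-type first exons were at 48.6% in AG-881 cells (358 calls) and 46.2% in DMSO cells (344 calls). Sequence between the first exons was at 78.6% with AG-881 and 74.4% with DMSO. The 500 bases upstream of C-type starts were at 8.14% in AG-881 cells (86 calls) and 10.2% in DMSO cells (59 calls). Over both arms 77 of these calls were of Pcdhac1, 66 of Pcdhgc3 and 2 of Pcdhgc5, and the other C-type exons had none there. The 500 bases upstream of alternate starts were at 56.8% with AG-881 (44 calls) and 61.8% with DMSO (34 calls). Those calls came from 11 of the 53 alternate exons, so the value is a mixture of a few genes. Over both arms, 31 calls were of Pcdhga11 (64.5% methylated), 12 of Pcdhb2 (0%), 11 of Pcdhb13 (100%) and 8 of Pcdhga10 (100%). At all positions the intervals of C-type and alternate sequence did not overlap in either arm, for first exons or for the upstream windows. In the planned set the order of the first exons was the other way, and their intervals overlapped in both arms. C-type first exons were there at 93.3% with AG-881 (15 calls) and 85.7% with DMSO (21 calls), from 3 CpGs, all of Pcdhac1. Alternate first exons were there at 72.3% with AG-881 (148 calls) and 76.2% with DMSO (143 calls). The CpG-rich end of Taf7, a TFIID subunit gene that lies between Pcdhb and Pcdhg, was also low, at 3.54% in AG-881 cells (113 calls) and 0.98% in DMSO cells (102 calls).

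**Figure D1:**
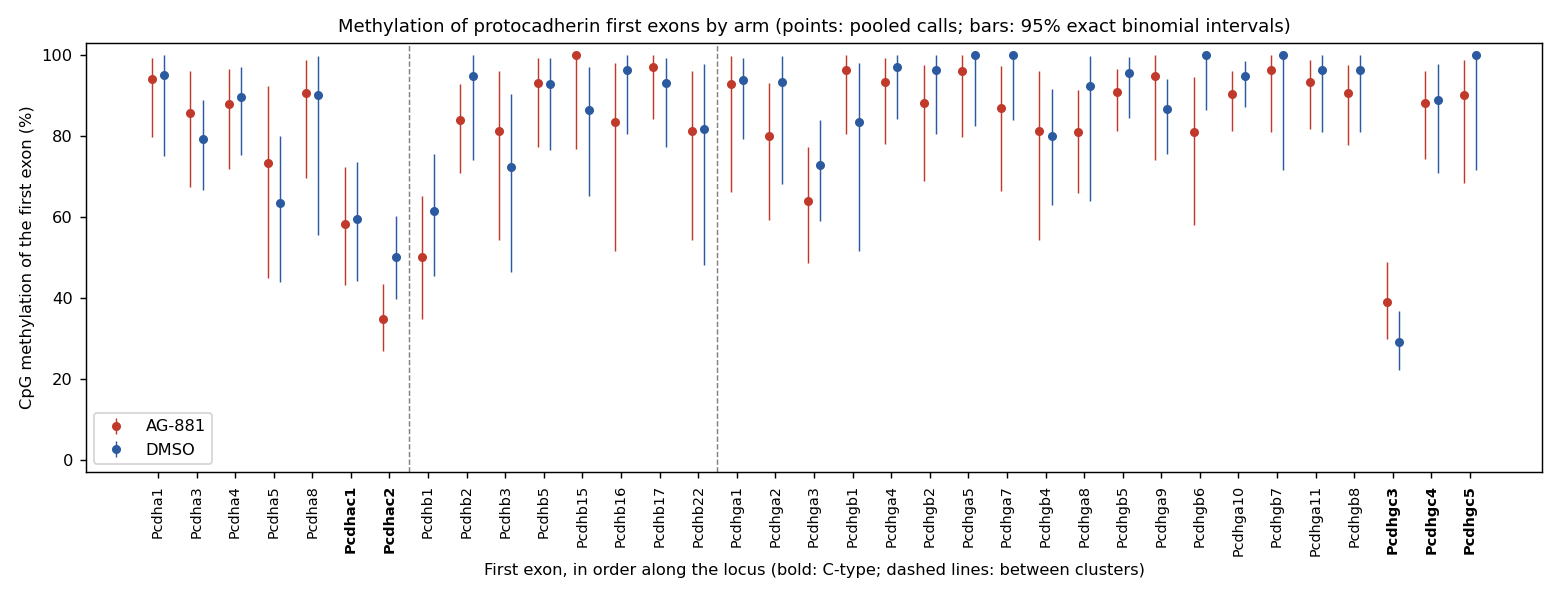
Methylation of each first exon with at least 20 calls over both arms, in order along the locus (x axis), as the percentage of calls methylated (y axis) in AG-881 cells (red) and DMSO cells (blue); points are pooled calls and bars 95% exact binomial intervals. Of these 35 exons, 28 stand at 80% or higher over both arms, and Pcdhac2 and Pcdhgc3 are the lowest.

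The plot of first exons by position shows that high methylation was shared by most alternate exons that had enough calls. Of the 53 alternate exons, 30 had at least 20 calls over both arms, and 26 of those were at 80% or higher. Calls fell in 52 of the 58 first exons, and 35 had at least 20 calls over both arms. Of those 35, 28 were methylated at 80% or higher, a count that was 26 to 29 with each pool left out in turn. Of the 18 exons with 20 calls and 5 cells or more in both arms, 13 were at 80% or higher, against 32.2% of the 2500-base windows outside the locus at that depth. The 6 exons below 70% were Pcdha5, Pcdhb1 and Pcdhga3 among the alternate exons, and Pcdhac1, Pcdhac2 and Pcdhgc3 among the C-type exons; Pcdha5 is named after its value was seen.

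Among the alpha exons, which encode the variable parts of alpha protocadherins, the family level was 84.8% in AG-881 cells (164 calls) and 82.5% in DMSO cells (166 calls). Pcdha4 was at 87.9% with AG-881 (33 calls in 11 cells) and 89.5% with DMSO (38 calls in 12 cells). Pcdha3 was at 85.7% with AG-881 (28 calls in 11 cells) and 79.3% with DMSO (58 calls in 14 cells), and the intervals of both exons overlapped between arms. No other alpha exon had 20 calls from 5 cells in both arms. Pcdha5 was lower, with 73.3% of 15 calls methylated in AG-881 cells and 63.3% of 30 calls in DMSO cells.

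Beta exons encode single-exon proteins with no shared constant domain, and they stood at 82.4% in AG-881 cells (255 calls) and 83.1% in DMSO cells (225 calls). Pcdhb17 was at 97.0% with AG-881 (33 calls in 15 cells) and 93.1% with DMSO (29 calls in 14 cells). Pcdhb1, the most upstream gene of the cluster, was at 50% with AG-881 (46 calls in 13 cells) and 61.4% with DMSO (44 calls in 14 cells). Its low level came from the start of the gene. In the 500 bases from the start, 6 of 28 calls were methylated in AG-881 cells and 4 of 20 calls in DMSO cells. Between 750 and 1250 bases the level was 94.4% with AG-881 and 95.8% with DMSO. Without Pcdhb1 the other beta exons were at 89.5% in AG-881 cells and 88.4% in DMSO cells. At the neighbouring gene, Pcdhb2, 0 of 12 calls in the 500 bases upstream were methylated over both arms, which allows a level of up to 25% (exact upper limit 26.5%), although its first exon was at 84.0% with AG-881 (50 calls) and 94.7% with DMSO (19 calls). Pcdhb2 was chosen after its values were seen, and its upstream calls come from 1 CpG.

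The gamma A and gamma B exons, whose products join the shared gamma constant domain, were highly methylated in both arms. Gamma A stood at 86.6% in AG-881 cells (357 calls) and 90.7% in DMSO cells (355 calls), a difference of -4.15 points (-9.02 to 0.71). Gamma B stood at 90.2% in AG-881 cells (224 calls) and 92.8% in DMSO cells (180 calls), a difference of -2.60 points (-8.33 to 3.39). Both intervals included 0. In DMSO cells the highest gamma A exon was Pcdhga7, with 21 of 21 calls methylated, against 87.0% of 23 calls in AG-881 cells. The lowest gamma A exon was Pcdhga3, at 63.8% with AG-881 (47 calls in 14 cells) and 72.7% with DMSO (55 calls in 17 cells). Of the gamma B exons, Pcdhgb6 was at 81.0% with AG-881 (21 calls in 7 cells) and had 25 of 25 calls methylated with DMSO (6 cells). Pcdhgb5 was at 90.9% with AG-881 (66 calls in 16 cells) and 95.5% with DMSO (44 calls in 13 cells). Intervals of the arms overlapped at each of these 4 exons.

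**Figure D2:**
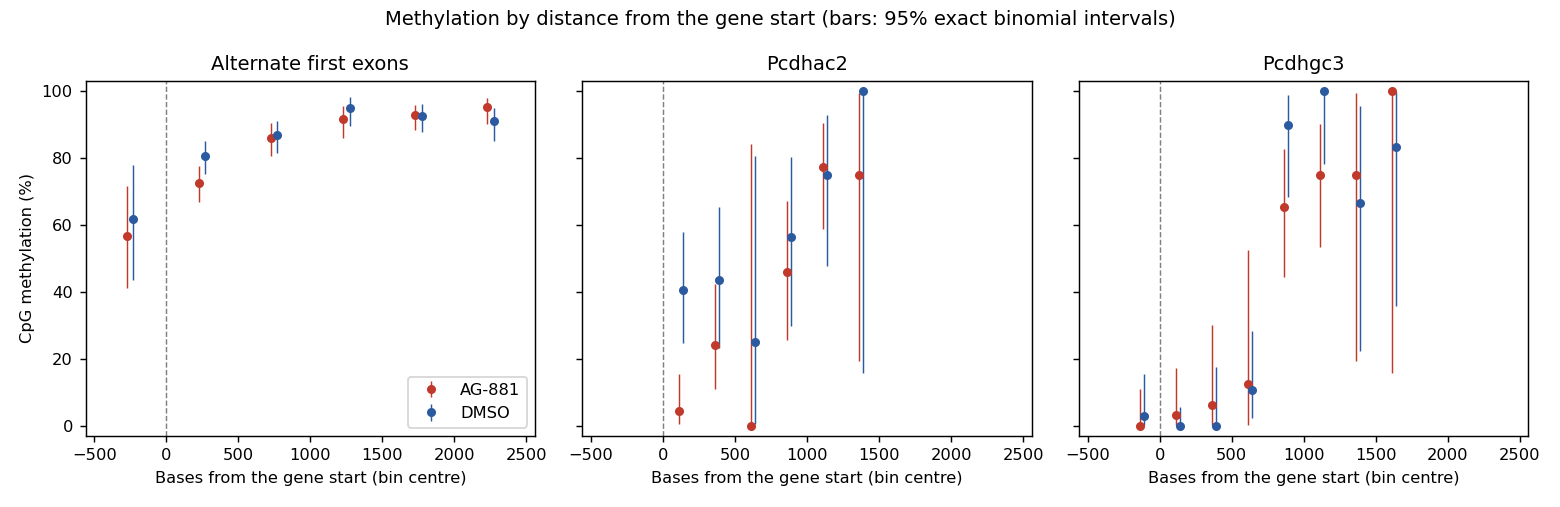
Methylation (y axis, percent of calls) by distance from the gene start (x axis, bases, at the centre of each bin) in AG-881 cells (red) and DMSO cells (blue), in 500-base bins over all alternate first exons and in 250-base bins for Pcdhac2 and Pcdhgc3; bars are 95% exact binomial intervals. Alternate exons climb from 56.8% with AG-881 and 61.8% with DMSO upstream of the start (11 exons with calls) to over 90% beyond 1000 bases. Pcdhac2 and Pcdhgc3 are low at the start and high further in.

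Alternate exons were less methylated at their starts than in their bodies, as the plot by distance shows. In the 500 bases from the start they were at 72.5% in AG-881 cells (273 calls) and 80.5% in DMSO cells (272 calls), from 33 exons with calls. From 500 to 1000 bases they were at 86.0% with AG-881 and 86.9% with DMSO, and from 1000 to 1500 bases at 91.6% with AG-881 and 95.1% with DMSO. Beyond 1500 bases the levels stayed between 90.9% and 95.2% in both arms. Of the bins, only the 500 bases from the start gave an interval of the difference without 0, -7.99 points (-15.3 to -0.62). Without Pcdhb1 the same bin was at 78.4% with AG-881 and 85.3% with DMSO, and its interval then included 0 (-14.0 to 0.10). It also included 0 over CpGs with calls from 2 or more cells in both arms, at 65.8% with AG-881 and 73.7% with DMSO (-18.6 to 2.92). Which exons contribute calls differs between bins and arms, and the part of that in the difference was not tested.

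**Figure D3:**
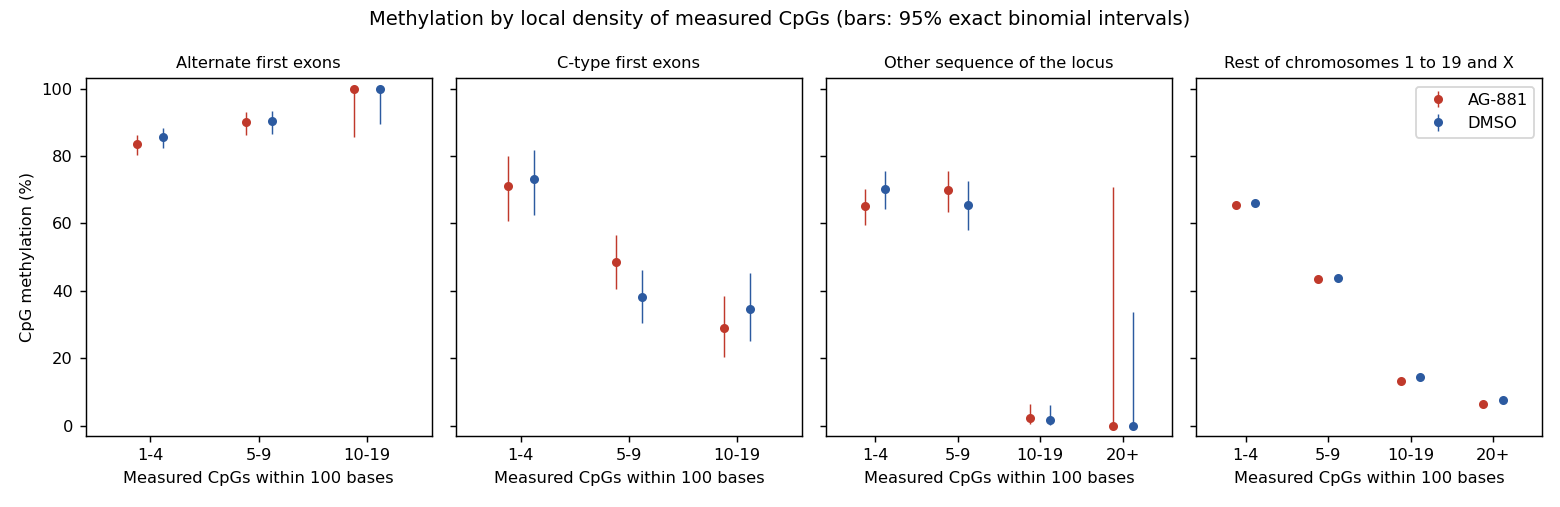
Methylation (y axis, percent of calls) by the number of measured CpGs within 100 bases of a CpG, itself included (x axis), for alternate first exons, C-type first exons, the other sequence of the locus and the rest of chromosomes 1 to 19 and X, in AG-881 cells (red) and DMSO cells (blue); bars are 95% exact binomial intervals. Alternate exons stay above 80% in all 3 classes they hold, while pooled C-type exons and the rest of the genome are lower where CpGs are denser.

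CpG-dense sequence is usually unmethylated in mammalian genomes, and the alternate exons differed from the rest of the genome in this, as the plot by CpG density shows. CpGs with 1 to 4 measured CpGs within 100 bases were at 83.4% in alternate exons of AG-881 cells and 85.5% in those of DMSO cells, against 65.6% with AG-881 and 65.97% with DMSO in the rest of the genome. In the class of 5 to 9 CpGs the alternate exons were at 90.03% with AG-881 (331 calls) and 90.3% with DMSO (340 calls), while the rest of the genome was at 43.4% with AG-881 and 43.9% with DMSO. In the class of 10 to 19 CpGs all 24 calls of AG-881 cells and all 33 calls of DMSO cells were methylated in alternate exons, and the rest of the genome was at 13.3% with AG-881 and 14.3% with DMSO. Pooled calls of C-type exons followed the order of the genome and not that of the alternate exons. They were at 70.97% with AG-881 and 73.03% with DMSO in the sparsest class, and at 28.8% with AG-881 and 34.7% with DMSO in the class of 10 to 19. The classes were not split by C-type exon, and Pcdhgc4 stayed high where its CpGs were close. Its 12 measured CpGs between 250 and 500 bases were at 92.3% with AG-881 (26 calls) and 100% with DMSO (16 calls). The density counts CpGs that the table holds, so it depends on the MspI fragments and not on the genome sequence.

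The 5 C-type exons, expressed in many neurons without the random choice, differed among themselves. Pcdhgc4, whose product is needed for the survival of some neurons, was at 88.1% in AG-881 cells (42 calls in 10 cells) and 88.9% in DMSO cells (27 calls in 5 cells). Pcdhgc5 had 18 of 20 calls methylated with AG-881 and 11 of 11 with DMSO. Pcdhac1, Pcdhac2 and Pcdhgc3 were lower, together at 40.2% with AG-881 (296 calls) and 40.5% with DMSO (306 calls).

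Pcdhac1 (chr18:37090136-37092635), the upstream C-type exon of Pcdha, was at 58.3% in AG-881 cells (48 calls in 13 cells) and 59.6% in DMSO cells (47 calls in 14 cells). The difference of -1.24 points had an interval from -21.9 to 19.5. Its methylation differed along the exon in the same way in both arms. The 250 bases before the start were at 12.96% with AG-881 and 17.4% with DMSO. The 250 bases after it were at 42.4% with AG-881 and 38.5% with DMSO. Between 1750 and 2000 bases it reached 93.3% with AG-881 (15 calls) and 85.7% with DMSO (21 calls).

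Pcdhgc3 (chr18:37806410-37808909), whose product restrains canonical Wnt signalling in cultured cells, had an unmethylated start. From 250 bases before the start to 500 bases after it, 2 of 78 calls were methylated in AG-881 cells and 1 of 118 in DMSO cells. In the 500 bases after the start alone, 0 of 84 calls were methylated in DMSO cells, which allows a level of up to 3.57% (3 calls of 84; exact upper limit 4.30%). From 750 bases onward the exon was at 71.4% in AG-881 cells (57.8 to 82.7; 56 calls in 9 cells) and 89.8% in DMSO cells (77.8 to 96.6; 49 calls in 13 cells), a difference of -18.4 points (-33.6 to -1.88) in a window chosen after the values were seen. Among cells with at least 3 calls in that window, the lowest of 7 AG-881 cells was at 0%, the median at 70% and the highest at 100%. The lowest of 8 DMSO cells was at 75% and the median and highest at 100%. The cells of the arms thus overlapped from 75% upward, and 4 AG-881 cells lay below every DMSO cell. For the whole window of 2500 bases the order was the other way, 39.1% with AG-881 (110 calls) and 29.2% with DMSO (161 calls), and the unmethylated 500 bases at the start held 46 of the 110 calls with AG-881 and 84 of the 161 with DMSO. With every CpG weighted equally that difference changed sign, to -9.74 points, so the first exon as a whole gives no direction.

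Pcdhac2 (chr18:37143678-37146177), the last variable exon of Pcdha, whose product serotonergic axons of the mouse need to spread evenly, was the 1 described exon whose interval of the difference did not include 0. It was at 34.8% in AG-881 cells (26.9 to 43.4; 138 calls in 22 cells) and 50% in DMSO cells (39.7 to 60.3; 98 calls in 17 cells), a difference of -15.2 points (-28.2 to -1.84). The interval included 0 with 2 of the 8 pools left out. The difference became -9.52 points (-24.3 to 5.73) once AG-881 pool 3 was dropped and -10.8 points (-24.8 to 3.36) once DMSO pool 8 was dropped. Dropping DMSO pool 5 gave -21.5 points. The arms stood further apart in the 500 bases from the start. There the level was 12.99% in AG-881 cells (6.41 to 22.6; 77 calls in 13 cells) and 41.7% in DMSO cells (29.1 to 55.1; 60 calls in 10 cells), a difference of -28.7 points (-43.7 to -12.8). In the closest 250 bases, 2 of 44 calls were methylated with AG-881 and 15 of 37 with DMSO. Further in, between 750 and 1500 bases, Pcdhac2 was at 64.4% in AG-881 cells (59 calls) and 67.6% in DMSO cells (34 calls). The 500-base window was chosen after its values were seen, and its values are a description.

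**Figure D4:**
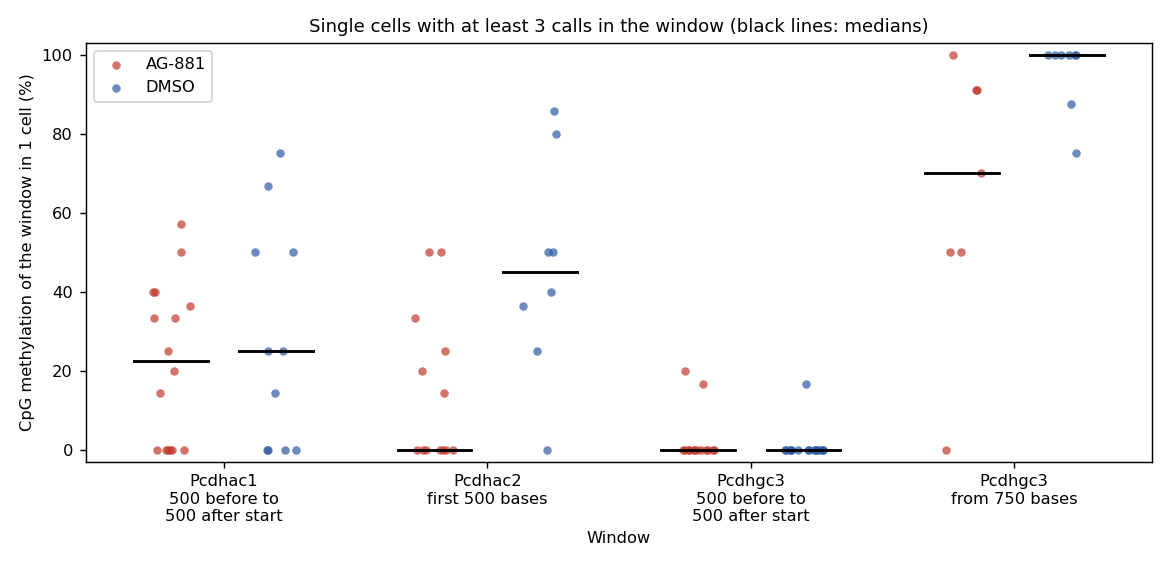
Methylation of 1 window in 1 cell (y axis, percent of calls) for 3 C-type exons (x axis), in AG-881 cells (red) and DMSO cells (blue) with at least 3 calls in the window; each point is a cell and black lines are medians. At Pcdhac2, 7 of 13 AG-881 cells and 1 of 8 DMSO cells are at 0% (7 of 13 and 3 of 10 counting every cell with a call). At Pcdhgc3 from 750 bases the median is 70% in AG-881 cells and 100% in DMSO cells.

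Single cells showed the same order at the start of Pcdhac2, with overlap between arms. Of cells with at least 3 calls in the 500 bases, the lowest of 13 AG-881 cells was at 0%, the median at 0% and the highest at 50%, and 7 were at 0%. The lowest of 8 DMSO cells was at 0%, the median at 45% and the highest at 85.7%, and 1 was at 0%. The limit of 3 calls left out DMSO cells at 0% and no AG-881 cell. Counting every cell with a call there, 7 of 13 AG-881 cells and 3 of 10 DMSO cells were at 0%. The plot of single cells shows that 2 DMSO cells lay above every AG-881 cell. Of the 20 CpGs called in both arms, 9 were lower in AG-881 cells, 4 were higher and the others were equal. With each of these 20 CpGs weighted equally the level was 14.7% with AG-881 and 32.9% with DMSO, so the difference was smaller than in pooled calls.

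By pool, the start of Pcdhac2 was at 16.7%, 13.2% and 6.67% in AG-881 pools 2, 3 and 4, and pool 1 had no call there. It was at 42.4%, 50% and 36.4% in DMSO pools 5, 6 and 7, and at 0 of 2 calls in pool 8. Each of these values comes from few cells. With AG-881 there were 5 cells (pool 2), 6 cells (pool 3) and 2 cells (pool 4). With DMSO there were 5 cells (pool 5), 3 cells (pool 6) and 1 cell each (pools 7 and 8). With pool 8 the pool values of the arms overlapped in this window, which was picked for its difference. Without its 2 calls the values did not overlap, but their intervals did. AG-881 pool 2 had an interval of 4.74 to 37.4, and DMSO pool 5 one of 25.5 to 60.8. With each pool left out in turn the difference ranged from -30.3 to -26.1 points. Outside the locus, 0.167% of 1000-base windows with 50 calls and 10 cells or more in both arms were lower in AG-881 cells by as much, and 0.642% of such windows at a level of 10 to 60%. That share is only a scale for the size, since the window was picked for its difference.

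**Figure D5:**
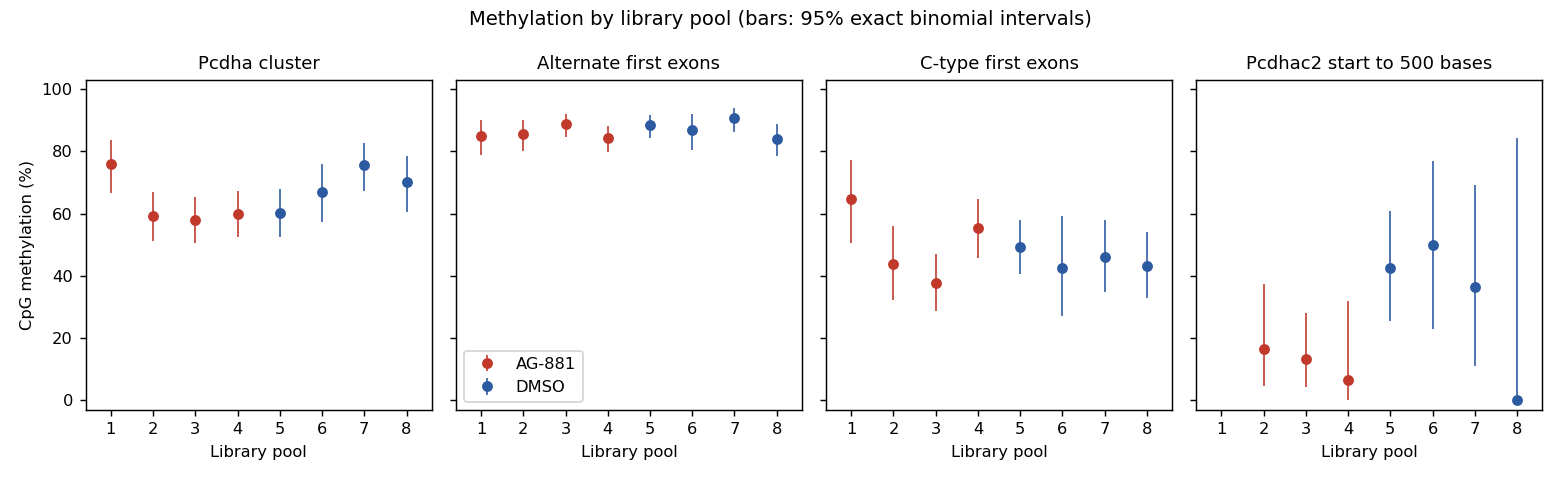
Methylation (y axis, percent of calls) in each library pool (x axis; pools 1 to 4 are AG-881, red, and pools 5 to 8 DMSO, blue) for the Pcdha cluster, the alternate first exons, the C-type first exons and the first 500 bases of Pcdhac2; bars are 95% exact binomial intervals. Alternate exons stand between 84.1% and 90.7% in all 8 pools, and Pcdha is higher in AG-881 pool 1 than in the other AG-881 pools.

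Over the 18 first exons with 20 calls and 5 cells or more in both arms, 14 were lower and 4 higher in AG-881 cells, with a median difference of -4.02 points. Outside the locus 51.9% of 2500-base windows at this depth were lower and 41.4% higher, with a median difference of -0.16 points; among windows at 60% or higher 49.9% were lower and 48% higher. The 9 gamma A and gamma B exons in the set, 5 and 4 of them, were all lower in AG-881 cells. By at least 10 points, 4 of the 18 were lower (Pcdhac2, Pcdhb1, Pcdhga7 and Pcdhgb6) and 0 higher, against 10.8% of windows lower and 7.54% higher outside the locus. Among windows at 60% or higher, 11.5% were lower and 10.2% higher by that much. Of the 4 exons, all but Pcdhac2 had intervals that included 0. Pcdhgb6 had a difference of 0 points at CpGs with calls from 2 or more cells in both arms, and likewise with every CpG weighted equally. Pcdhb1 was at -6.37 points at CpGs with 2 or more cells, 1.43 points at those with 5 or more and -0.26 points with every CpG weighted equally. Pcdhga7 was at -9.09 points at CpGs with 2 or more cells and -9.38 points with every CpG weighted equally. The counts depend on single pools. Without DMSO pool 7, 11 exons kept the depth, 6 of them lower and 5 higher, and without DMSO pool 5, 8 of 10 were lower and 2 higher. The 18 exons share cells, so they are not independent, and no test over them was made.

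The pools also show how far levels vary within an arm. Over the alternate exons the AG-881 pools ranged from 84.2% to 88.7% and the DMSO pools from 84.1% to 90.7%, as the plot by pool shows. The pools of the arms overlapped, and DMSO pool 7 was the highest. For the C-type exons AG-881 pools ranged from 37.6% to 64.8% and DMSO pools from 42.5% to 49.3%, a wider range in AG-881 cells. In Pcdha, AG-881 pool 1 was at 76.0% and the other AG-881 pools between 58.01% and 60%. The Pcdha difference at all positions was -8.56 points without AG-881 pool 1, -9.28 points without DMSO pool 5 and -3.04 points without DMSO pool 7. Its interval included 0 with 6 of the 8 pools left out, and with every cell weighted equally the difference was -1.57 points.

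From cell to cell, the alternate exons were nearly uniform in their high methylation. Over all alternate exons together, the lowest of 43 AG-881 cells with at least 10 calls was at 63.6%, the median at 85.7% and the highest at 100%. The lowest of 36 DMSO cells was at 60%, the median at 88.9% and the highest at 100%. No cell of either arm was mostly unmethylated over these exons. Cells differed by an SD of 10.5 points with AG-881 and 9.62 points with DMSO.

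A single exon in a single cell can be unmethylated while its neighbours are not, and such cases were few in number. With at least 3 calls of a cell in an alternate exon, 7 of 164 cell and exon pairs were at 10% or lower in AG-881 cells (4.27%; 1.73 to 8.596) and 1 of 148 in DMSO cells (0.68%; 0.017 to 3.71). At 90% or higher were 65.2% of pairs with AG-881 and 67.6% with DMSO. Between these limits were 30.5% of pairs with AG-881 and 31.8% with DMSO. In genome windows at a level of 80 to 95%, 0.49% of cell and window pairs were at 10% or lower with AG-881 and 0.39% with DMSO. At 90% or higher were 62.4% of those pairs with AG-881 and 62.2% with DMSO, and between the limits 37.1% with AG-881 and 37.5% with DMSO. The share of low pairs was above that of the genome windows in AG-881 cells, but the 2 sets are unlike. The alternate exons were not limited to that level, and Pcdhb1 was at 55.6% over both arms. The genome windows also needed 40 calls over both arms, and the alternate exons did not. Pcdha7 (8 calls) and Pcdhb22 (27 calls), each with a low pair, had fewer. Of the 8 low pairs, 4 were Pcdhb1, whose start was low in both arms, 3 of them in AG-881 cells and 1 in a DMSO cell. The other 4 were Pcdha7 (0 of 8 calls), Pcdhga2 (0 of 5), Pcdhb22 (0 of 3) and Pcdhgb6 (0 of 3), all in AG-881 cells and each in a different cell. Without Pcdhb1 the share was 2.61% with AG-881 (0.72 to 6.56; 4 of 153) and 0 of 140 with DMSO, which allows up to 2.14% (exact upper limit 2.60%). These intervals overlap, and the exons were named after their values were seen.

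Pcdhgc3 and Pcdhac2 had the most cells with at least 5 calls in both arms. Of cells with at least 5 calls in Pcdhgc3, 5 of 13 AG-881 cells and 7 of 15 DMSO cells were at 10% or lower, and 1 in each arm was at 90% or higher. The lowest AG-881 cell was at 0%, the median at 16.7% and the highest at 90.9%. The lowest DMSO cell was at 0%, the median at 12.5% and the highest at 100%. The variance between cells was 2.87 times that expected from independent calls at the pooled level in AG-881 cells and 3.42 times in DMSO cells. With the expectation taken separately for each 250-base stretch it was 1.21 times with AG-881 and 1.44 times with DMSO. The level of each stretch came from these same few cells, which by itself lowers the ratio. How much of the excess went with the stretch a cell had calls in therefore cannot be told. At Pcdhac2 the ratio was 1.41 in AG-881 cells (13 cells) and 1.88 in DMSO cells (10 cells), and by stretch 1.42 with AG-881 and 2.06 with DMSO. The ratio is from few cells. Without DMSO pool 5, the DMSO ratio was 1.69 at Pcdhgc3 and 1.04 at Pcdhac2, and with cells of at least 3 calls the AG-881 ratio at Pcdhac2 was 2.63. No exon reached the planned 15 cells per arm, so all-or-none exons were not measurable at this depth.

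Outside the clusters, protocadherins that are single genes with ordinary promoters had low gene ends. Of 12 listed, 3 reached 50 calls and 10 cells in both arms within 1000 bases of their CpG-denser end. Pcdh8, which takes part in cell movements and synapses, was at 4.44% in AG-881 cells (1.22 to 10.99) and 21.9% in DMSO cells (14.1 to 31.5). Pcdh1, an adhesion protein of epithelia and endothelia, was at 8.21% with AG-881 and 10.2% with DMSO, and Pcdh18 at 0.85% with AG-881 and 0% with DMSO, so 2 of the 3 were lower and 1 higher, against 50.8% lower and 30.8% higher of all 9033 gene ends. By at least 10 points, 1 of the 3 was lower and 0 higher, against 3.4% of all gene ends lower and 0.908% higher. None of them approached the level of the alternate exons.

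Genes that act on the clusters kept low gene ends as well. Of 23 listed regulators of architecture and silencing, 13 were measured and 12 were below 5% in both arms, against 73.6% of all gene ends. They included Ctcf, at 0.53% in AG-881 cells and 0.47% in DMSO cells, and Smchd1, at 0.36% with AG-881 and 0.42% with DMSO. Dnmt3b, the methyltransferase of the alternate promoters, was at 0.90% with AG-881 (0.25 to 2.30) and 4.30% with DMSO (2.61 to 6.63). Setdb1, a histone H3 lysine methyltransferase, was the one above 5%, at 8.65% with AG-881 and 7.79% with DMSO. Of the 13, 5 were lower, 5 higher and 3 equal, with a median difference of 0 points; of all gene ends 50.8% were lower and 30.8% higher, with a median difference of -0.015 points. None of the 13 differed by at least 10 points in either direction, against 3.4% of all gene ends lower and 0.908% higher by that much.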

How the data were processed

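Per the labels' protocols, single cells were profiled by reduced representation bisulfite sequencing after MspI digestion. The deposited values are the methylated fraction of each cytosine position in each cell (0, 0.5 or 1), on mm10 per the submitters' processing notes; read depth is unknown, and the aligner and caller were not given in the sources used here. Column names gave the arm and pool of each of the 141 cells; all 24 barcodes recur in more than 1 pool, and no 2 columns had the same set of calls.

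Adjacent positions were merged as the 2 strands of 1 CpG (837 positions of the locus gave 792 CpGs), and ties (0.649% of calls over the genome) were left out. Calls were pooled per arm, and intervals of differences combine both arms' intervals. Gene starts came from RefSeq (GRCm38.p6); no sequence is reported here. A level with 0 methylated calls is limited to 3 calls of all its calls. Scripts used Python 3.11.15, NumPy 2.4.6, pandas 2.3.3 and SciPy 1.17.1 and were tested on simulated calls.

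Members and lists were chosen with earlier results of these data known. Named were all C-type exons and, in each other family, the exons with the highest and lowest DMSO level among those with 20 calls and 5 cells per arm; the planned rules at 100 calls or 15 cells named none. Alternatives are in the closing section.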

Additional observations from a re-analysis of the deposited data

Results flagged for a closer look

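The Pcdha cluster in AG-881 pool 1, at 75.96% over 13 cells, stood apart from the other AG-881 pools, which were at 59.3%, 58.01% and 60%. Its gap to the nearest pool was a larger part of the range of the 4 pools than Dixon's criterion at the 95% level allows. It was the 1 of 21 groups of 4 pools so found, and chance flags about 1 in 20 such groups. The DMSO pools ranged from 60.4% to 75.6%. The reason for the high pool was not tested.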

How the results depend on the processing

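No paired analysis was possible because no test was run and the arms share no replicate: the well numbers of the labels are not in the columns. Of 201 alternatives without a left-out pool and 280 with one, 186 and 275 kept the value within the interval of the reported one (counts and ratios within 1.5 times). Where that interval was wide, a change of sign counted as kept, so these counts do not show a stable direction. At all positions the planned-set Pcdha difference of 3.24 points was -5.74 points, and the Pcdhg difference of -9.03 points was 3.06 points, both counted as kept. At CpGs with calls from 5 or more and from 10 or more cells in both arms the Pcdha difference at all positions reversed, to 3.24 and 4.06 points, the locus difference became 4.06 points at 10 cells, and the Pcdhg difference -9.03 points at 5 cells. With every CpG weighted equally Pcdhg was -3.24 and the C-type exons -8.69 points. The cause was not tested; the stricter sets hold fewer calls (65 with AG-881 and 81 with DMSO at 10 cells). Variance ratios by stretch were 1.21 (AG-881) and 1.44 (DMSO) at Pcdhgc3; with at least 10 calls the DMSO ratio at Pcdhgc3 was 2.20, and with at least 3 calls the AG-881 ratio at Pcdhac2 was 2.63. With each pool left out the DMSO ratio ranged from 1.69 to 3.84 at Pcdhgc3 and from 1.04 to 2.23 at Pcdhac2, and of the first exons with enough depth 6 to 15 were lower and 2 to 5 higher in AG-881 cells. Depth limits every exon value, since no first exon reached the planned number of calls.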
